A study of Mus musculus with 12 samples.

Results

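A list of 35 genes of fatty acid oxidation was followed in mouse embryonic stem cells (ESCs) and in the spheroids grown from them. The list was given by gene name, but it was chosen with earlier results of these data known. It holds 6 genes of the carnitine shuttle, 7 mitochondrial acyl-CoA dehydrogenases, and 7 hydratases, dehydrogenases and thiolases of the mitochondrial spiral. Also in it are 3 enzymes for unsaturated chains, 3 genes of the electron transfer flavoprotein route, 4 peroxisomal enzymes and 5 regulators of the Ppar group. All 35 were among the 35580 genes of the tables, and 33 of them passed the filter on low counts, among 17424 genes that were tested. Pparg and Ppargc1a did not pass.

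RNA-sequencing libraries came from the parental R1 line (WT, Cidea +/+) and from CIDEA KO cells (Cidea -/-) of the same R1 background, all from 1 clone. Each genotype was sampled as ESCs in serum medium with LIF (0 h) and as spheroids in growth factor-reduced Matrigel with more serum and no LIF at 24 h and 48 h, with 2 samples per group that the study describes as independent. Time in spheroids, LIF, serum, Matrigel and the way cells were collected changed together, so their parts in a difference between times cannot be told apart. Likewise, loss of Cidea cannot be told apart from other differences of the KO clone, and in bulk RNA fewer cells that use a gene and less of its RNA per cell cannot be told apart.

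Fatty acids enter mitochondria as carnitine esters: a Cpt1 enzyme in the outer membrane makes the ester, the translocase Slc25a20 carries it inward, and Cpt2 returns the acyl group to CoA. Each turn of beta-oxidation then uses an acyl-CoA dehydrogenase, a hydratase, a hydroxyacyl-CoA dehydrogenase and a thiolase, and the first step hands its electrons to the electron transfer flavoprotein. Peroxisomes shorten very long chains by a similar route, and the nuclear receptors of the Ppar family, with the Ppargc1 coactivators, switch many of these genes on in tissues that burn fat.

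Depth was 29.0 to 38.5 M estimated counts per library. Cidea, the targeted gene, had 89 and 67 counts in WT at 0 h, 117 and 46 at 24 h and 20 and 21 at 48 h, and 0 in all 6 KO libraries. The summed level of 6 ESC and epiblast markers was 2133 to 3763 transcripts per M (TPM) in the 12 libraries, against 6.9 to 12 TPM for 6 primitive endoderm, 14.6 to 27 TPM for 5 trophectoderm and 6.88 to 24.8 TPM for 6 fibroblast markers, of which Postn stayed under 3 counts everywhere. In both genotypes 5 of the 6 ESC and epiblast markers fell from 0 h to 48 h and 1 (Utf1) rose, and the part of this shift in the results on fatty acid oxidation was not tested. One library stood apart: at equal depth KO 24 h replicate 1 held 15485 detected genes, against 17623 to 19688 in the others. For part of the results that rest on it, values without it are given as well.

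The summed level of the 35 genes fell at each step of the time course in both genotypes, as a description without a test. It was 1546 ± 10.2 TPM in WT ESCs (mean ± SD, n = 2 for each group), 1378 ± 5.39 TPM at 24 h and 1132 ± 22.6 TPM at 48 h. KO cells had 1530 ± 7.31 TPM at 0 h, 1369 ± 19.9 TPM at 24 h and 1196 ± 16.3 TPM at 48 h. No library of one time point overlapped with another time point in either genotype.

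Between single genes, on the TPM scale, the mean over 12 libraries ran from 144 TPM for Etfb to 0.0299 TPM for Pparg. Etfb and Etfa (134 TPM), the 2 subunits of the electron transfer flavoprotein, came first, followed by the short-chain hydroxyacyl-CoA dehydrogenase Hadh (111 TPM), the medium-chain dehydrogenase Acadm (108 TPM) and Hsd17b10 (91.5 TPM). At the other end stood Ehhadh (2.26 TPM), Ppargc1b (1.76 TPM), Ppara (0.345 TPM), Ppargc1a (0.0333 TPM) and Pparg. The regulators that are best known for driving these enzymes in liver and fat were thus the lowest of the list here. Neighbours in this order were close: in the 12 libraries Hadh and Acadm, and Etfa and Etfb, exchanged places. The order also counts short transcripts. Those with a full coding sequence held 69.9% of Etfb and 58.8% of Acadm TPM, against 95.4% for Etfa and 99.8% for Hadh. On these alone Etfb had 98.7 TPM against 142 for Etfa in WT ESCs, and 124 against 120 in KO at 24 h.

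Sequences are shown for gene pairs whose members did not move alike in the results that follow. Cpt1a and Cpt1c are paralogs that moved in opposite directions, and the 250 bases before each RefSeq start (build GRCm38.p6, 5′ to 3′ on the strand of the gene) are given here with AGGTCA, the core word that nuclear receptors such as Ppar and estrogen-related receptors bind, in capitals on either strand. For Cpt1a they are chr19:3323051-3323300 (+ strand), and the word starts at -94. In GENCODE M21 this window lies inside the annotated gene, which starts at 3322334 with another transcript, and its last bases are 5′ UTR of Cpt1a-201, the transcript measured here. For Cpt1c they are chr7:44974852-44975101 (- strand), just before the annotated gene, and the word starts at -146.
Cpt1a: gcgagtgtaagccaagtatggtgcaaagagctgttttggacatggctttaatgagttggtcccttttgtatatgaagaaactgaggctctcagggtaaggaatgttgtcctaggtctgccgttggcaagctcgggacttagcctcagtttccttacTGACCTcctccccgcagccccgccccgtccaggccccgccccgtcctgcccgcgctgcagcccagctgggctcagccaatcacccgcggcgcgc
Cpt1c: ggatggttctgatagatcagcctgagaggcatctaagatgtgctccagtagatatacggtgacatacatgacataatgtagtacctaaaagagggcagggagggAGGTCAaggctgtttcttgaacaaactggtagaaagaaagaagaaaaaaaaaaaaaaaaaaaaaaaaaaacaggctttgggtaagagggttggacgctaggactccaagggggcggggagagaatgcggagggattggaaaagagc
The 2 windows differed in composition, with 59.6% GC and 14 CpG dinucleotides for Cpt1a against 44% and 4 for Cpt1c. Hadha and Hadhb, which encode the 2 subunits of the trifunctional protein, lie head to head, and the 85 bases between the annotated genes (chr5:30155163-30155247, shown on the + strand, toward Hadhb) hold 9 CpG dinucleotides.
Hadha-Hadhb gap: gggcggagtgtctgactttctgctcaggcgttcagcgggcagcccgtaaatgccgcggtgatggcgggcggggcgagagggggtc
RefSeq promoter windows, from 250 bases before to 50 after the start, were at hand for 27 of the 35 genes and for 27025 genes in all. On both strands AGGTCA was in the windows of 6 of the 27 (22.2%; Cpt1a, Cpt1c, Acadm, Acadvl, Echs1 and Pparg) and of 18.1% of all genes. The longer words that contain it, TCAAGGTCA (0.466% of all genes) and AGGTCANAGGTCA (0.0481%), were in none of the 27. These letters were thus about as frequent before these genes as before others, and a match is not a binding site.

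From ESCs to 48 h spheroids, more of the fatty acid oxidation genes fell than rose. In WT, 17 of the 33 tested genes were lower and 1 was higher at 48 h than at 0 h, while 12.5% of all tested genes were lower and 11.1% higher (edgeR's quasi-likelihood test, Benjamini-Hochberg adjusted p under 0.05). In KO cells 16 were lower and 1 was higher, against 12.8% and 12.1% of all genes. The list was chosen with earlier results of these data known, so these counts are no independent test. The median log2 fold change of the 33 was -0.43 in WT and -0.38 in KO, beside 0.02 and 0.01 over all tested genes. The 2 comparisons share no library, and 14 genes were lower in both, which is 82.4% of the WT list and 87.5% of the KO list. The same overlap over all genes was not counted, so these shares cannot be called particular to the list. The counts depended on the scale: with average transcript lengths as offsets 10 genes were lower in each genotype, and with limma on log2(TPM + 1) 9 were lower in WT and 11 in KO. Calls over all genes became fewer as well. The share in WT went from 23.6% to 14.3% with lengths and 15.1% with limma. The KO share went from 25% to 15.3% with lengths and 15% with limma. Under all 7 alternatives 9 of the 18 WT calls were kept (Cpt1a, Cpt1b, Slc25a20, Acadm, Acad11, Hadha, Acaa2, Etfb and Acaa1a). The same held for 10 of the 17 KO calls (Cpt1a, Cpt1b, Slc25a20, Acadm, Acad11, Acaa2, Decr1, Etfb, Acox3 and Acaa1a).

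**Figure D1:**
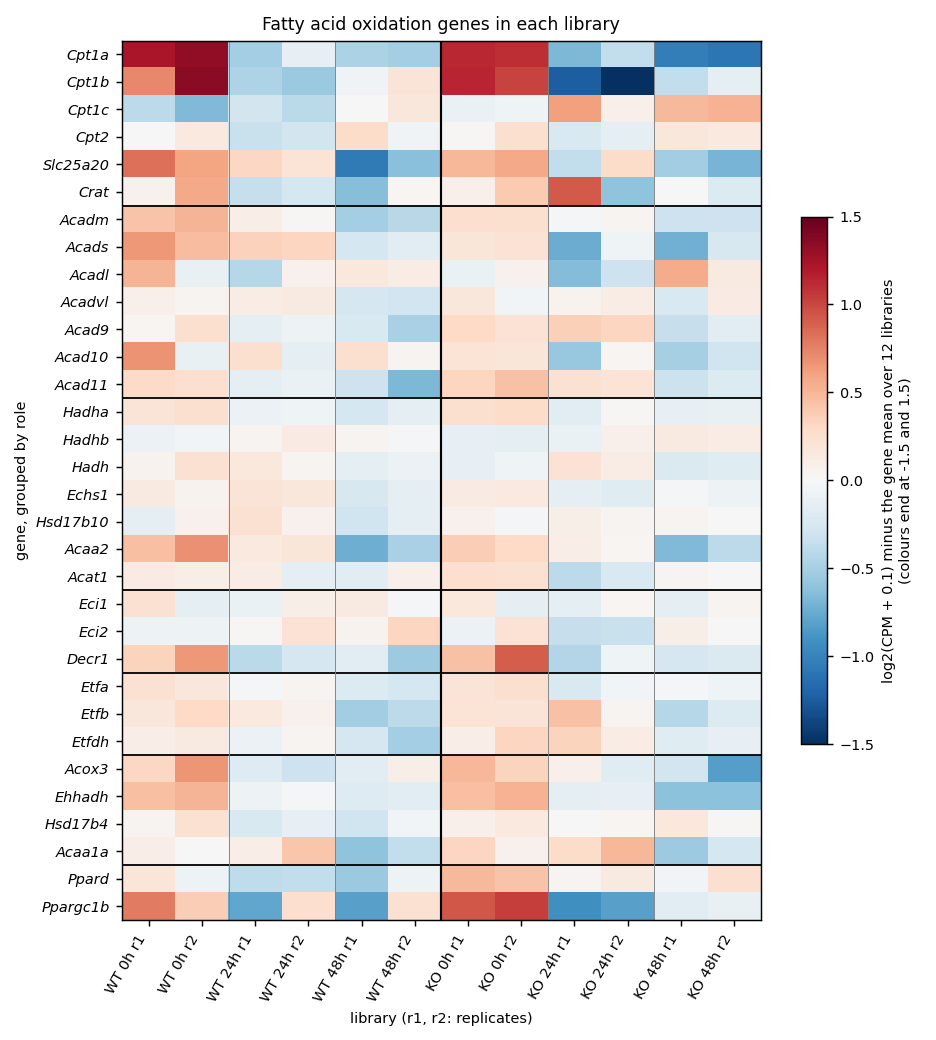
Normalised level of 32 tested fatty acid oxidation genes (rows, grouped by role) in the 12 libraries (columns, WT left and KO right), as log2(CPM + 0.1) minus the mean of the gene over the 12 libraries; red is above and blue below that mean. The 0 h libraries of both genotypes are the darkest red for Cpt1a and Cpt1b, and Ppara, with 0 to 37 counts per library, is not drawn.

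**Figure D2:**
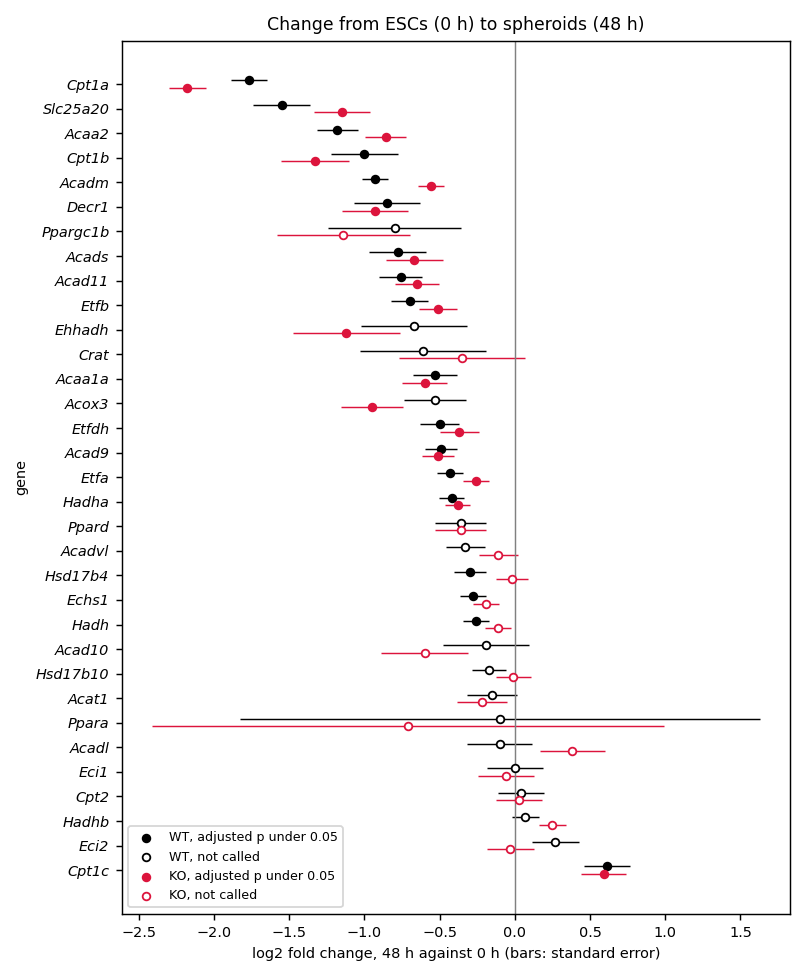
Log2 fold change from 0 h to 48 h (x axis; bars are standard errors) of the 33 tested genes (y axis, ordered by the WT value) in WT (black) and KO (red), with filled points for an adjusted p under 0.05. In both genotypes Cpt1a stands lowest, at -1.77 and -2.18, and Cpt1c is the filled point above zero, at 0.61 and 0.59.

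Of the carnitine shuttle, Cpt1a, Cpt1b and Slc25a20 fell by 48 h in both genotypes and Cpt1c rose. Per-library values of tested genes are given from here on as normalised counts per M counts (CPM), replicate 1 before replicate 2. Cpt1a, the liver-type carnitine palmitoyltransferase, had 154 and 166 CPM in WT at 0 h, 46.5 and 60.4 at 24 h and 47.6 and 46.2 at 48 h. In KO cells it had 145 and 142 CPM at 0 h, 41.3 and 50.9 at 24 h and 32.1 and 31.1 at 48 h. All 0 h libraries were thus above all later ones. Over the 48 h its log2 fold change came to -1.77 ± 0.12 (SE; adjusted p = 1.2e-09) in WT and -2.18 ± 0.12 (adjusted p = 5.6e-11) in KO, and most of it was there at 24 h (-1.58 and -1.63). The calls at 24 h and over 48 h held under all 7 alternatives and without any single library. From 24 h to 48 h the fall was called in KO alone (-0.55, adjusted p = 0.00516; WT -0.19, adjusted p = 0.433). That call ended with transcript lengths as offsets (adjusted p = 0.0544) and limma (adjusted p = 0.0769 and 0.0739). The 2 genotypes' changes were not tested against each other over that interval.

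Cpt1b, the muscle-type enzyme, fell by 24 h in both genotypes. WT libraries had 21 and 32.5 CPM at 0 h, 9.18 and 8.58 at 24 h and 12.2 and 14.5 at 48 h. KO libraries had 28.1 and 25.6 CPM at 0 h, 5.33 and 4.11 at 24 h and 9.77 and 11.5 at 48 h. On this scale the 3 time points did not overlap in either genotype and 24 h was the lowest. In TPM, which the short transcript described with the ratios of the Cpt1 genes enters, WT had 12.6 and 5.56 at 24 h and 7.51 and 7.52 at 48 h, with overlap. The fall from 0 h to 24 h was -1.59 ± 0.23 in WT (adjusted p = 4.8e-05) and -2.51 ± 0.24 in KO (adjusted p = 2e-07), and the rise from 24 h to 48 h was called in KO (1.17 ± 0.23, adjusted p = 0.00205) but not in WT (0.59 ± 0.23, adjusted p = 0.127). The WT call over 48 h (adjusted p = 0.00223) ended without WT 0 h replicate 2 (-0.64, adjusted p = 0.093), while the KO call (-1.33 ± 0.23, adjusted p = 0.00014) held without any single library. The KO rise after 24 h was not called with transcript lengths as offsets (1.19, adjusted p = 0.0529).

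Cpt1c, the brain-type paralog, whose product has little activity in acyl transfer, moved the other way. It had 29.1 and 24 CPM at 0 h, 31.5 and 28.9 at 24 h and 38.4 and 42.9 at 48 h in WT. The KO libraries had 35.6 and 36.5 CPM at 0 h, 58.5 and 40.2 at 24 h and 53.6 and 54.9 at 48 h. On full coding transcripts alone the log2 ratio of mean TPM (0.1 added) at 48 h to 0 h was 0.32 in WT and 0.35 in KO. The rise over 48 h in counts was 0.61 ± 0.15 in WT (adjusted p = 0.00549) and 0.59 ± 0.15 in KO (adjusted p = 0.00636). With both limma fits this rise was called in neither genotype. In WT it was no longer called without 0 h replicate 2 (0.49, adjusted p = 0.0802) or 48 h replicate 2 (0.54, adjusted p = 0.0583), nor with transcript lengths as offsets (0.55, adjusted p = 0.0764), and the KO call ended without 0 h replicate 1. In KO a rise of 0.45 was also called at 24 h (adjusted p = 0.0427), which dropped to 0.15 (adjusted p = 0.64) without KO 24 h replicate 1.

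The ratio of the 2 paralogs by length-scaled level changed with time. In WT the ratio of Cpt1a to Cpt1c TPM was 2.61 and 3.94 at 0 h, 0.736 and 1.06 at 24 h and 0.628 and 0.63 at 48 h. In KO it was 2.42 and 2.28, then 0.386 and 0.71, then 0.332 and 0.321. Over all transcripts Cpt1a was the higher of the 2 in every ESC library and the lower in every 48 h library. In WT this switch depended on which transcripts were counted. On full coding transcripts alone, Cpt1a and Cpt1c had 16.2 and 14.3 TPM in WT 24 h replicate 1, 20.9 and 12.1 in replicate 2. In WT at 48 h they had 16.3 and 13.6 in replicate 1 and 15.5 and 16.5 in replicate 2. Cpt1a was thus the lower in 1 of these 4 libraries. In KO it was the lower in all 4 spheroid libraries on this count too, with 10.6 and 10.4 TPM against 21.4 and 22 at 48 h. Cpt1a TPM came from 1 transcript, whereas 0 to 65.5% of Cpt1b TPM per library lay on Cpt1b-202, a 339-base retained-intron transcript, and 43.7 to 83.3% of Cpt1c TPM on the coding Cpt1c-201.

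**Figure D3:**
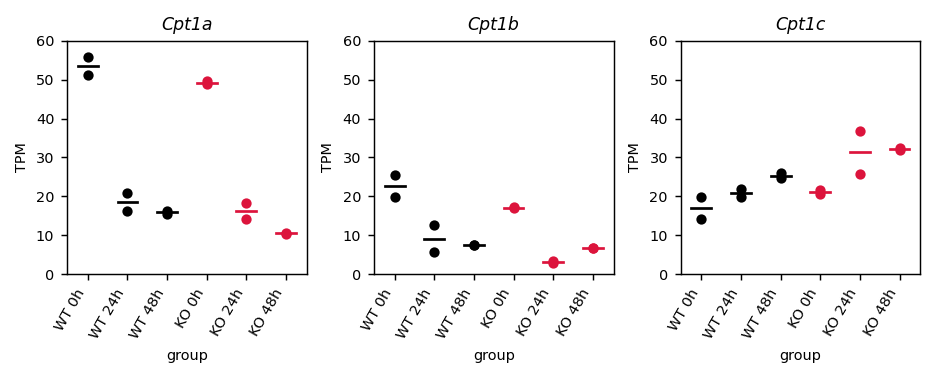
TPM of Cpt1a, Cpt1b and Cpt1c (y axis from 0) in each of the 6 groups (x axis; WT black, KO red); points are libraries and bars are means of 2. Cpt1a drops from 51.3 and 55.7 TPM in WT ESCs to 16.3 and 15.5 TPM at 48 h, while Cpt1c goes from 19.7 and 14.1 to 26 and 24.6 TPM.

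Slc25a20, the carnitine-acylcarnitine translocase, fell later than Cpt1a in WT. Its libraries had 68.2 and 58 CPM at 0 h, 47.6 and 44.1 at 24 h and 18.4 and 24.8 at 48 h in WT, and 54.3 and 57.1, 29.6 and 46.5, and 26.6 and 23.6 CPM in KO. No 2 times overlapped in either genotype. The change over 48 h was -1.55 ± 0.19 in WT (adjusted p = 1.7e-05) and -1.15 ± 0.19 in KO (adjusted p = 0.00024), and both calls held under all alternatives and without any single library. In WT the step from 24 h to 48 h was called (-1.08 ± 0.19, adjusted p = 0.00159) and the step before it was not (-0.46 ± 0.18, adjusted p = 0.112). In KO the step from 0 h to 24 h was called at -0.55 (adjusted p = 0.0498), and without KO 24 h replicate 1, the lower of the pair, it was -0.26 and not called. Cpt2, the inner-membrane transferase, and Crat, the acetyltransferase for short acyl groups, were called in no comparison: Cpt2 ranged from 20.3 to 31.1 CPM and Crat from 8.38 to 24.9 CPM, with the highest Crat value in KO 24 h replicate 1.

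Of the 7 mitochondrial acyl-CoA dehydrogenases, 4 fell over 48 h in both genotypes (Acadm, Acads, Acad9 and Acad11), and Acadl, Acadvl and Acad10 were called in neither. Acadm, the medium-chain enzyme, had 121 and 128 CPM at 0 h, 96.2 and 91.3 at 24 h and 63.3 and 67.2 at 48 h in WT, and 107 and 106, 87.8 and 92.5, and 72.6 and 72.3 CPM in KO. Each time stood below the one before it. Its change over 48 h was -0.93 ± 0.09 in WT (adjusted p = 1e-07) and -0.56 ± 0.09 in KO (adjusted p = 5.7e-05), and both held under all alternatives and every omission of a library. The difference between these changes was 0.38 (unadjusted p under 0.05, adjusted p = 0.522). Acads, the short-chain enzyme, went from 57.1 and 50.2 to 30.1 and 32.4 CPM in WT (-0.78 ± 0.19, adjusted p = 0.00597) and from 41.2 and 42.3 to 22 and 30.7 CPM in KO (-0.67 ± 0.19, adjusted p = 0.016). The WT call of Acads ended without WT 0 h replicate 1 (-0.69, adjusted p = 0.0593) or 48 h replicate 1 (-0.72, adjusted p = 0.0716), and the KO call without either 0 h library or KO 48 h replicate 1 (-0.44).

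Acad9, known also for its part in assembling respiratory complex I, stood at 91.8 and 106 CPM at 0 h, 80.9 and 85.1 at 24 h and 76.4 and 64.2 at 48 h in WT. In KO it kept 110 and 104 CPM at 0 h and 115 and 112 at 24 h and then reached 70.3 and 79.7. The change over 48 h was -0.49 ± 0.10 in WT (adjusted p = 0.00151) and -0.51 ± 0.10 in KO (adjusted p = 0.001). Both calls held without any single library but not with transcript lengths as offsets (WT -0.33, adjusted p = 0.221), and the short transcript Acad9-205 took 0 to 28.2% of the gene's TPM. Acad11, which acts on longer chains, went from 34.9 and 33.9 to 23 and 17.8 CPM in WT (-0.76 ± 0.14, adjusted p = 0.00059) and from 35.8 and 38.7 to 22.8 and 24.8 CPM in KO (-0.65 ± 0.14, adjusted p = 0.00213), with no overlap and no alternative or omitted library that ended the call. Acadvl, the very-long-chain enzyme, ranged from 31.4 to 43.2 CPM and Acad10 from 6.27 to 15 CPM. Acadl, the long-chain enzyme, had one call: from 15 and 19 CPM at 24 h it rose to 34.9 and 26 at 48 h in KO (0.84 ± 0.22, adjusted p = 0.0176), which ended without KO 24 h replicate 1 or KO 48 h replicate 1.

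Among the enzymes that finish each turn of the spiral, the thiolase Acaa2 fell most. Its WT libraries had 49.4 and 57.8 CPM at 0 h, 39.9 and 41 at 24 h and 21.6 and 25.7 at 48 h, and its KO libraries 46.7 and 44.2, 38.5 and 36.8, and 22.7 and 27.4 CPM. The 3 times did not overlap in either genotype. The change over 48 h was -1.18 ± 0.14 in WT (adjusted p = 1.8e-06) and -0.86 ± 0.14 in KO (adjusted p = 6.7e-05), and it held under all alternatives and omissions. All of its TPM lay on 1 transcript.

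The 2 subunits of the trifunctional protein did not change alike. Hadha, the alpha subunit with hydratase and long-chain dehydrogenase activity, had 162 and 167 CPM at 0 h and 118 and 128 at 48 h in WT (-0.42 ± 0.08, adjusted p = 0.00076) and 168 and 172 against 130 and 131 CPM in KO (-0.38 ± 0.08, adjusted p = 0.0015), where the call ended with transcript lengths as offsets. Hadhb, the thiolase subunit, had 80.5 and 82.9 CPM at 0 h and 87.8 and 83.8 at 48 h in WT (0.07 ± 0.09, adjusted p = 0.663), and 78.4 and 77.9 against 93.5 and 92.5 CPM in KO (0.25 ± 0.09, adjusted p = 0.0501). In TPM the ratio of Hadha to Hadhb was 1.55 and 1.5 at 0 h and 1.16 and 1.13 at 48 h in WT, and 1.47 and 1.7 against 1.13 and 1.09 in KO, without overlap between these times. The ratio itself was not tested. Between 48.4% and 72.8% of Hadha TPM lay on Hadha-201, annotated as a processed transcript without a coding frame, and 11.2 to 18.5% on the coding Hadha-205, on which the mean level went from 15.4 to 11.6 TPM in WT and from 16.2 to 11.9 TPM in KO.

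Smaller falls over 48 h were called in WT for Hadh (-0.26 ± 0.09, adjusted p = 0.0333), from 131 and 148 to 114 and 119 CPM, and for the short-chain enoyl-CoA hydratase Echs1 (-0.28 ± 0.09, adjusted p = 0.0227), from 94.6 and 89.4 to 72.9 and 78.3 CPM. The KO values were -0.11 (adjusted p = 0.446) and -0.19 (adjusted p = 0.129), from 116 and 121 to 109 and 111 and from 94.2 and 95.6 to 84.5 and 81.8 CPM. Neither WT call held with transcript lengths as offsets, that of Echs1 ended without any 1 of the 4 libraries (-0.23 to -0.33), and that of Hadh without WT 0 h replicate 2 (-0.16, adjusted p = 0.349) or either 48 h library. At 24 h the KO libraries of Hadh were higher than at 0 h, at 147 and 137 CPM (0.26, adjusted p = 0.0424; 0.20 and adjusted p = 0.231 without KO 24 h replicate 1), those of Echs1 were lower, at 77.7 and 75.7 CPM (-0.31, adjusted p = 0.0172), and those of the thiolase Acat1 were lower at 15.3 and 17.2 against 24.1 and 23.7 CPM (-0.56, adjusted p = 0.0232). Each of these 3 calls ended on leaving out a 0 h library, and that of Acat1 also without KO 24 h replicate 1. Hsd17b10, a mitochondrial dehydrogenase that also serves isoleucine breakdown and transfer RNA processing, ranged from 41.1 to 59.3 CPM and was never called.

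For unsaturated chains, the dienoyl-CoA reductase Decr1 fell by 24 h in both genotypes, while the isomerases Eci1 (17.4 to 22.7 CPM) and Eci2 (20.4 to 32.4 CPM) were called in no comparison. Decr1 had 17.8 and 22.3 CPM at 0 h, 10.7 and 11.9 at 24 h and 12.6 and 9.68 at 48 h in WT, and 19.3 and 26.6, 10.4 and 13.5, and 11.9 and 12.2 CPM in KO. All 0 h libraries were above all later ones. The change over 48 h was -0.85 ± 0.22 in WT (adjusted p = 0.00771) and -0.93 ± 0.22 in KO (adjusted p = 0.00354). The KO call ended without KO 0 h replicate 2 (-0.69), and the WT call without WT 0 h replicate 2 or 48 h replicate 2 (-0.67 to -1.04 over the omissions) and with transcript lengths as offsets (-0.47, adjusted p = 0.279) or limma on log2(TPM + 1) (-0.39, adjusted p = 0.309).

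All 3 genes of the electron transfer flavoprotein route fell over 48 h in both genotypes. Etfa went from 129 and 124 to 95.5 and 92.3 CPM in WT (-0.43 ± 0.09, adjusted p = 0.00092) and from 126 and 131 to 108 and 106 CPM in KO (-0.26 ± 0.09, adjusted p = 0.0303). Etfb went from 68.4 and 74.8 to 42.1 and 46.2 CPM in WT (-0.70 ± 0.12, adjusted p = 0.00032) and from 69.8 and 69.2 to 45 and 52.5 CPM in KO (-0.51 ± 0.12, adjusted p = 0.00429). Etfdh, which passes the electrons to ubiquinone, went from 42 and 42.9 to 32.7 and 27.5 CPM in WT (-0.50 ± 0.13, adjusted p = 0.00832) and from 42 and 48.9 to 34.4 and 35.9 CPM in KO (-0.37 ± 0.13, adjusted p = 0.0424). In each case the 0 h and 48 h libraries did not overlap. Both Etfb calls over 48 h held under all 7 alternatives. Those of Etfdh in each genotype and of Etfa in KO ended with transcript lengths as offsets and with both limma fits. The KO call of Etfdh also ended with DESeq2, and the WT call of Etfa ended with both limma fits. The KO call of Etfa ended without any 1 of the 4 libraries (-0.24 to -0.31), that of Etfb without KO 48 h replicate 1 (-0.40), that of Etfdh without KO 0 h replicate 2 or either 48 h library, and the WT call of Etfdh without WT 0 h replicate 2 or 48 h replicate 2 (-0.37 to -0.62). At 24 h Etfb had 67.2 and 63.6 CPM in WT and 82.2 and 62.3 in KO, and its fall was called from 24 h to 48 h (-0.56 and -0.57, adjusted p = 0.00615 and 0.00485) and not from 0 h to 24 h. The KO call of that step ended without KO 24 h replicate 1 (-0.36, adjusted p = 0.0741) or KO 48 h replicate 1 (-0.47, adjusted p = 0.103). The WT call ended without WT 24 h replicate 1 (-0.53, adjusted p = 0.0666) or 48 h replicate 1 (-0.50, adjusted p = 0.0963). Both ended with transcript lengths as offsets (adjusted p = 0.0518 in WT and 0.0555 in KO).

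In the peroxisomal group the thiolase Acaa1a fell after 24 h in both genotypes. It had 41.6 and 38.7 CPM at 0 h, 41.6 and 51.9 at 24 h and 25.6 and 30 at 48 h in WT, and 48.5 and 40.6, 47.1 and 55, and 26.5 and 32.2 CPM in KO. The 48 h libraries lay below all others. Over 48 h it changed by -0.53 in WT and -0.60 in KO (adjusted p = 0.0122 and 0.00433), and each of these calls ended without 0 h replicate 1 or 48 h replicate 1 of its genotype (-0.41 and -0.47 at the least). From 24 h to 48 h the change was -0.75 ± 0.15 in WT (adjusted p = 0.00232) and -0.80 ± 0.15 in KO (adjusted p = 0.00106); the WT call ended without WT 24 h replicate 2 or 48 h replicate 1, and the KO call held throughout. Acaa1a has a near-identical neighbour, Acaa1b, with which reads may be shared, and overlaps Myd88 on the other strand.

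Acox3, the branched-chain acyl-CoA oxidase, was called lower over 48 h in KO (24.1 and 21.5 against 14 and 9.57 CPM; -0.95 ± 0.21, adjusted p = 0.0019; -0.70 and not called without KO 48 h replicate 2). Its WT libraries had 21.1 and 26.9 CPM at 0 h, 14.9 and 13.7 at 24 h and 15.1 and 18.1 at 48 h, with a call at 24 h (-0.74 ± 0.21, adjusted p = 0.0181) and none over 48 h (-0.53 ± 0.21, adjusted p = 0.0723). The call at 24 h ended without WT 0 h replicate 2 (-0.55, adjusted p = 0.204) or either 24 h library, and with transcript lengths as offsets (-0.31, adjusted p = 0.55). Ehhadh, the peroxisomal bifunctional enzyme, fell from 5.98 and 6.27 to 2.81 and 2.81 CPM in KO (-1.12 ± 0.35, adjusted p = 0.0246, a call that ended without any 1 of the 4 libraries); in WT it went from 5.97 and 6.24 to 3.8 and 3.85 CPM (-0.67 ± 0.35, adjusted p = 0.19). The bifunctional enzyme Hsd17b4 passed the threshold narrowly in WT (74.6 and 85.1 against 59.2 and 70.5 CPM; -0.30 ± 0.11, adjusted p = 0.0496), and its call ended with DESeq2 (adjusted p = 0.0565) and without WT 0 h replicate 2 (-0.19) or 48 h replicate 1 (-0.17). The KO value was -0.02. The changes of Acox3, Ehhadh and Hsd17b4 over 48 h were not called different between the genotypes.

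Of the regulators, Ppard and Ppargc1b had counts well above the floor in every library. Ppara had 0 to 37 counts per library, Ppargc1a 0 to 14 and Pparg 0 to 6, where 3 counts are the floor, equal to 0.0779 to 0.1035 CPM by library. Pparg was at 0 counts in 10 of the 12 libraries. Ppard, the widely expressed Ppar, had 28.8 and 24 CPM at 0 h, 19.4 and 19.6 at 24 h and 17.2 and 24 at 48 h in WT, and its changes with time were not called (-0.36 over 48 h in each genotype). Ppargc1b, a coactivator of mitochondrial genes, had 6.66 and 5 CPM at 0 h, 2.2 and 4.61 at 24 h and 2.14 and 4.52 at 48 h in WT, and 7.44 and 8.02, 1.99 and 2.15, and 3.45 and 3.57 CPM in KO. Its change of -1.90 ± 0.46 from 0 h to 24 h in KO was called (adjusted p = 0.00536), and the value over 48 h was -1.14 in KO and -0.80 in WT, neither of them called.

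Split by step, the falls were spread over both days. In WT 7 genes were lower at 24 h than at 0 h, against 7.47% of all tested genes. At 48 h 6 were lower than at 24 h, against 4.86%. None was higher in either step. In both directions together, 15% of all tested genes were called in the first WT step and 8.14% in the second. In KO 10 were lower and 2 higher at 24 h than at 0 h (9.33% and 9.24% of all genes), and 8 lower and 2 higher at 48 h than at 24 h (5.37% and 4.57%). The first WT step held Cpt1a, Cpt1b, Acadm, Hadha, Acaa2, Decr1 and Acox3, and the second Slc25a20, Acadm, Echs1, Acaa2, Etfb and Acaa1a. Of the first step, Cpt1a and Cpt1b alone were kept under every alternative and every omission of a library, in WT as in KO. Of the second, Slc25a20 and Acaa2 were in WT and Acaa1a in KO. Single omissions reduced the first step to 3 calls in WT (without 0 h replicate 2 or either 24 h library). In KO the first step fell to 3 calls without KO 0 h replicate 2 and 6 without KO 0 h replicate 1 or KO 24 h replicate 1. The second fell to 3 calls without WT 48 h replicate 1 and to 4 without KO 48 h replicate 1. The steps share their 24 h libraries, so a value that is high or low at 24 h by error enters both with opposite signs.

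Between KO and WT cells, 5 of the 33 tested genes (15.2%) were called over all times, against 5.03% of all tested genes. Over all time points together, 3 genes were higher in KO (2.19% of all tested genes were) and 2 were lower (2.84%): Cpt1c (0.52 ± 0.09, adjusted p = 0.001), Ppard (0.43 ± 0.10, adjusted p = 0.0128) and Acad9 (0.22 ± 0.06, adjusted p = 0.04) were higher, and Cpt1a (-0.31 ± 0.07, adjusted p = 0.00879) and Acads (-0.44 ± 0.11, adjusted p = 0.0283) were lower. The median over the 33 genes was -0.01. For Cpt1c the KO libraries were above both WT libraries at each time, and for Cpt1a below them at 0 h and 48 h, with an overlap at 24 h (41.3 and 50.9 against 46.5 and 60.4 CPM). Ppard had 35.7 and 34.2, 26.2 and 27.8, and 24.7 and 30 CPM in KO at the 3 times, in each case above both WT libraries. Acads had 21.6 and 34.8 CPM in KO at 24 h against 46.2 and 45.2 in WT.

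None of these 5 calls survived a fit with transcript lengths as offsets or limma on TPM, although each kept its sign, and all 5 were kept with DESeq2, its size factors, no filter and the replicate block. The calls of Cpt1a and Cpt1c held without any single library, including KO 24 h replicate 1. That of Ppard ended without KO 48 h replicate 2, and those of Acads and Acad9 ended without 1 of several libraries (-0.56 to -0.33 and 0.18 to 0.27). At 0 h no gene of the list was called (1.26% of all genes were by edgeR, and none of the list by DESeq2). At an unadjusted p under 0.05 by edgeR there were 4 of the 33 at 0 h, beside 10% of all genes. Under the same limit there were 8 at 24 h (12.5% of all genes), 6 at 48 h (7.74%) and 9 over all times (16.8%). These counts were not tested against the shares. At 24 h 2 were called higher in KO, against 0.448% of all genes. These were Cpt1c (0.71 ± 0.15, adjusted p = 0.0191) and Acad9 (0.45 ± 0.10, adjusted p = 0.0303), which dropped to 0.41 (adjusted p = 0.263) and 0.43 (adjusted p = 0.0741) without KO 24 h replicate 1. At 48 h 1 was called lower, against 0.476% of all genes: Cpt1a (-0.57 ± 0.12, adjusted p = 0.031), a call that ended without any 1 of the 4 libraries (-0.55 to -0.60).

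**Figure D4:**
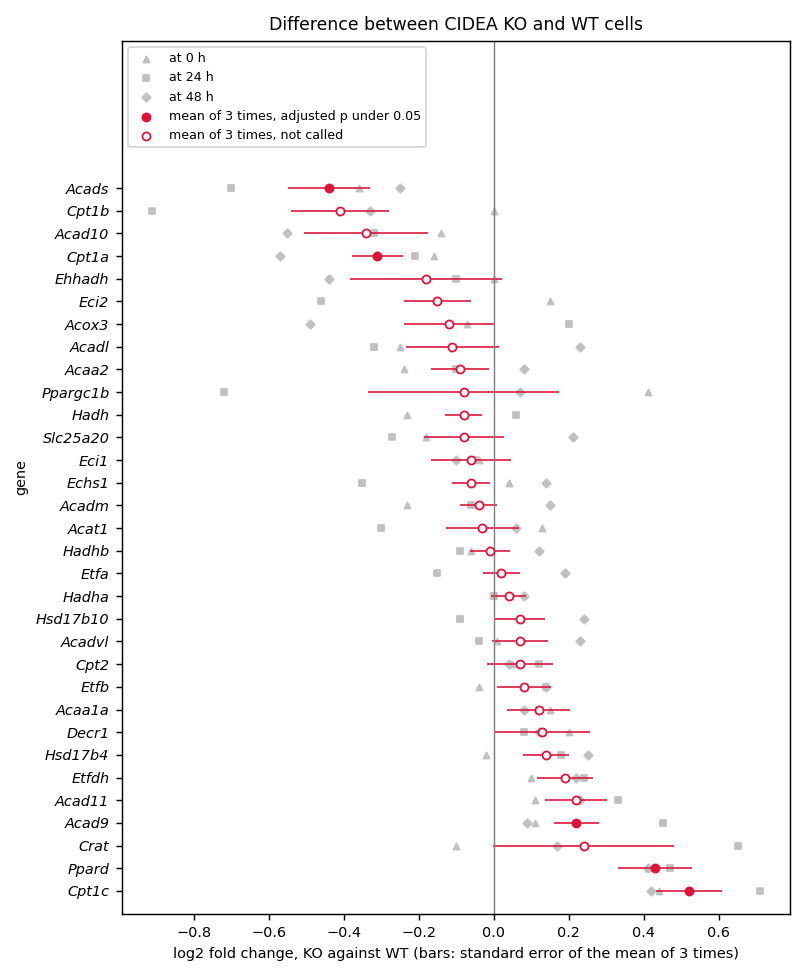
Log2 fold change of KO against WT (x axis) for 32 tested genes (y axis), as the mean of the 3 times with its standard error (red; filled for an adjusted p under 0.05) and at each time (grey). The filled points are Cpt1c at 0.52, Ppard at 0.43, Acad9 at 0.22, Cpt1a at -0.31 and Acads at -0.44, and Ppara, with the widest standard error, is not drawn.

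Whether the change with time differed between the genotypes was tested by interaction terms against 0 h. None of the 33 genes was called by edgeR at 24 h, where 0.0115% of all genes were, or at 48 h, where 0.0402% were. DESeq2 called none either. At an unadjusted p under 0.05 there were 5 genes at 24 h (Cpt1b, Acad9, Hadh, Echs1 and Eci2, adjusted p of 0.837 to 0.84) and 2 at 48 h (Cpt1a at -0.41, adjusted p = 0.761, and Acadm at 0.38). Over all tested genes 5.91% at 24 h and 5.76% at 48 h stood under that unadjusted p.

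Genes around the pathway moved in both directions over 48 h, and lists of them were read by counts only, beside the 11.1% of all tested genes higher and 12.5% lower in WT and the 12.1% and 12.8% in KO. Of 18 tested genes of fatty acid uptake and activation, 3 were higher and 4 lower in WT, and 4 and 5 in KO. The fatty acid-binding protein gene Fabp3 went from 645 and 812 to 83.4 and 96 TPM in WT (-3.05 ± 0.14, adjusted p = 4.5e-10) and by -3.58 in KO (adjusted p = 7.8e-11), whereas the acyl-CoA synthetase gene Acsl5 rose by 1.80 ± 0.15 in WT (adjusted p = 2.3e-08) and by 2.17 in KO. Of 16 other peroxisomal lipid genes, 2 were higher and 8 lower in each genotype, led by the racemase Amacr (-1.33 in WT and -0.86 in KO). Of 16 genes for branched-chain and odd-chain acyl-CoA, 1 was higher and 6 lower in WT, and 1 and 7 in KO, with Hibadh of valine breakdown at -0.94 and -0.82. Of 5 ketone body genes 3 were lower in each genotype, among them Bdh2 (-1.32 and -1.36) and Oxct1 (-0.63 and -0.57).

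Of 10 tested genes for malonyl-CoA and AMPK, which set the activity of Cpt1 enzymes, 4 were higher in WT and 1 in KO. Over all tested genes 11.1% were higher in WT and 12.1% in KO. None of the 10 was lower, beside 12.5% and 12.8% of all genes. These counts were not tested against the shares. Acaca, the acetyl-CoA carboxylase that makes malonyl-CoA, was called in both (0.49 ± 0.09 in WT, adjusted p = 0.00021, and 0.42 in KO, adjusted p = 0.00098). Of 18 nuclear partners and estrogen-related receptor genes, 3 were higher and 5 lower in WT, and 2 and 5 in KO. Esrrb, an estrogen-related receptor of naive ESCs that was also among the ESC markers, went from 390 and 386 to 73.2 and 80.3 TPM in WT (-2.43 ± 0.07, adjusted p = 8.4e-15) with a KO value of -2.87 (adjusted p = 5.2e-16). Esrra, the relative known for driving oxidative genes, had 15.5 and 15.4 TPM at 0 h and 16.7 and 15.4 at 48 h in WT (-0.09 ± 0.22, adjusted p = 0.842). Rxra, the partner of Ppar proteins, fell in WT (-0.58, adjusted p = 0.0194), with a KO value of -0.38 (adjusted p = 0.13). Sirt1, a deacetylase that acts on Ppargc1a, fell over 48 h in both genotypes (-1.04 and -1.08) and was lower in KO than in WT cells over all times (-0.71 ± 0.05, adjusted p = 5.2e-08). Of 9 Ppar targets outside beta-oxidation, 1 was higher and 2 lower in WT and 2 lower in KO, the lipid droplet gene Plin2 being lower in both (-1.08 and -1.09).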

How the data were processed

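The authors trimmed reads of TruSeq stranded mRNA libraries and quantified transcripts with kallisto; the submitters' processing notes name FastQC, Trimmomatic 0.33, kallisto 0.43.1 and the builds mm10 and GRCm38. The strand setting of kallisto and the transcript set are not given in the sources used here. The deposited tables hold, per transcript, the estimated count, which is not normalised, and the authors' TPM, scaled by effective length and depth.

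Transcripts were matched by identifier to GENCODE M21: 113580 of 115270 (98.5%) matched, and the rest, with 0.659 to 0.709% of counts per library, were left out. Both values were summed per gene (Python 3.11.15, pandas 2.3.3) and count sums rounded. Reads of paralogs and of overlapping genes (Crat with Dolpp1, Acadvl with Dvl2, Echs1 with Paox, Hadha with Garem2) may be divided wrongly.

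Depth per library (29.0 to 38.5 M) sets a floor of 3 counts, which covers counting error only. The fit of gene counts used edgeR 4.0.16 under R 4.3.3 (TMM, filterByExpr, robust quasi-likelihood, 1 mean per group over all 12 libraries), with Benjamini-Hochberg adjustment over 17424 genes in each of 12 comparisons; a gene is called at an adjusted p under 0.05. CPM are counts over TMM-scaled library sizes. The fits were also run on simulated counts. These held no outlying library and no shifts of transcript length, so that check covers neither. With 2 libraries against 2, an exact permutation test could not pass the threshold and was not used.

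Alternatives were DESeq2 1.42.0, its size factors in edgeR, no filter, average transcript lengths as offsets, limma 3.58.1 on log2(TPM + 1) and on log2(TPM + 0.1), the replicate number as a block, and leaving out each library. All 35 genes could be named, per-library values were given for those called, the 5 highest and lowest by TPM and the regulators; from companion lists at most 4 called genes with the largest change were named, and Esrra, Esrrb, Rxra and Cidea always. The genes, roles and companion lists were chosen with earlier results of these data known. Promoter windows came from RefSeq (GRCm38.p6).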

Additional observations from a re-analysis of the deposited data

How the results depend on the processing

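No value changed sign where it was called. Of 78 calls, DESeq2 kept 76, edgeR with the size factors of DESeq2 77, testing without a filter 77, transcript lengths as offsets 32, limma on log2(TPM + 1) 35 and on log2(TPM + 0.1) 34. Numbers of the 33 genes called changed as follows. With lengths, the share called over all tested genes fell from 15% to 7.57% in the first WT step and from 8.14% to 3.24% in the second. In KO it fell from 18.6% to 10.2% and from 9.95% to 4.72%. From 0 h to 24 h in WT, 7 became 2 with lengths and 2 and 2 with limma (+ 1, then + 0.1), and 3 to 6 without single libraries. From 24 h to 48 h in WT, 6 became 3 with lengths and 3 to 6 without single libraries. From 0 h to 48 h in WT, 18 became 10, 9 and 9, and 11 to 15. From 0 h to 24 h in KO, 12 became 6, 5 and 4, and 3 to 13. From 24 h to 48 h in KO, 10 became 2, 4 and 4, and 4 to 11. From 0 h to 48 h in KO, 17 became 11, 11 and 11, and 11 to 13. For KO against WT at 24 h, 2 became 5 with DESeq2, 5 without the filter and 0 with lengths and limma. Over all tested genes the share went from 1.46% to 2.59% with DESeq2, 2.48% without the filter and 0.367% with lengths. Without KO 24 h replicate 2 the all-gene median log2 fold change moved from -0.02 to -0.09, so that omission shifts more than the list. For KO against WT at 48 h, 1 became 0 with lengths and limma, and over all times 5 became 0, 0 and 0. Over all tested genes the share with lengths went from 0.671% to 0.109% at 48 h and from 5.03% to 1.69% over all times. The interaction at 24 h gave 0 calls with DESeq2, lengths and limma. Without KO 24 h replicate 2 its median log2 fold change over all tested genes moved from -0.03 to -0.1. The cause was not tested. Where an omission left 1 library in a group, that library was assumed to vary like the other groups.

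The replicate number as a block kept 77 of 78 calls, the exception being Slc25a20 from 0 h to 24 h in KO. Replicate numbers pair the samples only by name: deviations of same-numbered WT and KO libraries correlated at 0.003, 0.051 and -0.009 at 0, 24 and 48 h. Levels near 3 counts carry no direction.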
